A study of Mus musculus with 15 samples.

Results

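Lesional macrophages of mice fed a western-type diet for 14 weeks were compared, over all measured genes, with those of mice fed it for 2 weeks. The samples were chosen by their titles: 5 arrays of 14 weeks (14w-WD) and 5 of 2 weeks (2w-WD), which are 10 of the 15 arrays of the series. The other 5, from mice kept on chow (CHOW), entered the estimate of the spread, the choice of probe set and the level filter. They are also given as reference levels. All mice were C57BL/6 animals of genotype ApoE-/-, which lack apolipoprotein E, a carrier protein of blood lipids, and develop atherosclerotic lesions. The CHOW mice ate chow to the age of 22 weeks, and the 14w-WD mice ate the diet between weeks 8 and 22. The 2w-WD mice ate chow for 20 weeks and then the diet for 2 weeks by their sample labels, but from week 22 to week 24 by the series text. The age of the 2w-WD mice is therefore uncertain, and a difference in age cannot be told apart from one in diet. Foam cells were cut by laser from cross-sections of the aortic sinus, and their RNA was amplified and hybridised to arrays of the Affymetrix type Mouse Genome 430 2.0. The labels tie no array to an animal and do not say whether animals were pooled, so p-values measure only the spread between these arrays, which may be technical in part.

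Foam cells are macrophages that have taken up lipoproteins and hold their cholesterol in lipid droplets. Lipoproteins and dead cells reach the lysosome, an acid compartment in which proteases, lipases and glycosidases digest them; a proton pump keeps it acid, and freed cholesterol is exported from the cell or stored as ester. In lesions the same cells respond to interferons and microbial patterns, divide, and secrete proteases that act on the matrix.

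Values are log2(intensity + 16), 1 probe set per gene, and a change is the 14w-WD mean minus the 2w-WD mean on this scale, so that folds of dim genes are understated. Of 11925 genes at or above the filter level of 5.66, which is the median of all probe sets, 1201 were higher in 14w-WD (10.1% of genes tested) and 137 were lower (1.15%) at an adjusted p under 0.05 (limma, Benjamini-Hochberg over all genes tested). The median gene was 0.23 higher in 14w-WD, with quartiles at -0.15 and 0.72, and 65.2% of genes lay above 0. All 1201 higher genes exceeded this median as well. Their own median change was 1.39, against -0.80 for the lower genes. The 2 sets of 5 arrays did not overlap for 1029 genes (8.63%), of which 842 lay higher in 14w-WD (7.06%) and 187 lower (1.57%). Among the 1338 changed genes 695 (51.9%) did not overlap.

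The arrays of the 2 groups differed in brightness. Probe sets above an intensity of 100 made up 25.7%, 20.2%, 19.8%, 18.2% and 20.4% of those on 2w-WD replicates 1 to 5, and 25.9%, 24.6%, 27.2%, 22.5% and 24.1% of those on 14w-WD replicates 1 to 5. 2w-WD replicate 1 was thus as bright as the 14w-WD arrays, and 2w-WD replicate 4 was the dimmest. The difference of 3.97 percentage points had an exact permutation p of 0.03175 (two-sided, 5 against 5, smallest possible p 0.00794; adjusted p = 0.0714 over 3 measures). With this share as a covariate 0 genes passed limma's test, while 934 had an unadjusted p under 0.05, and all 1338 changed genes kept their sign. With array medians made equal, 975 genes were higher and 191 lower, and with quantile normalization 669 and 300, so that higher genes made up 83.6% and 69% of the changed genes instead of 89.8%.

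**Figure D1:**
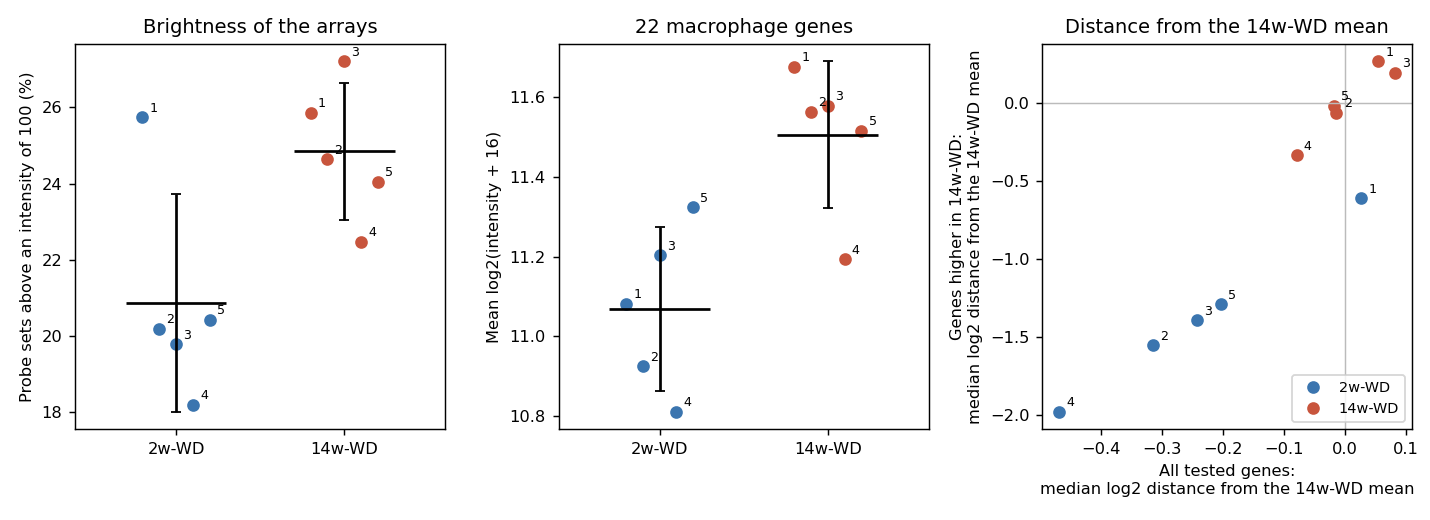
Left, percent of probe sets with an intensity over 100 on each array, and middle, mean log2 level of 22 macrophage genes, with points numbered by replicate, lines at group means and bars of 1 SD (n = 5). Right, for each array, the median log2 distance from the 14w-WD mean over all tested genes (x) and over the 1201 genes higher in 14w-WD (y). 2w-WD replicate 1 lies at -0.61 and replicate 4 at -1.98 on the y axis.

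The number of genes that passed depended on single arrays. It fell to 164 without 14w-WD replicate 1, 224 without 14w-WD replicate 3, and 260 without 2w-WD replicate 2 and likewise without 2w-WD replicate 4. It was 568 without 14w-WD replicate 5, 628 without 14w-WD replicate 2 and 721 without 2w-WD replicate 3. It rose to 3536 without 2w-WD replicate 1, the bright one. Without both 2w-WD replicates 1 and 4, a setting chosen after seeing the data, 2233 genes passed. On 2w-WD replicate 1 only 58.6% of the higher genes lay below every 14w-WD array, against 94.3% to 99.2% on the other 2w-WD arrays (21.2% and 39.4% to 50.9% for all genes tested). The SD within a group was larger in 2w-WD than in 14w-WD for 77.9% of genes, with medians of 0.51 and 0.32.

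**Figure D2:**
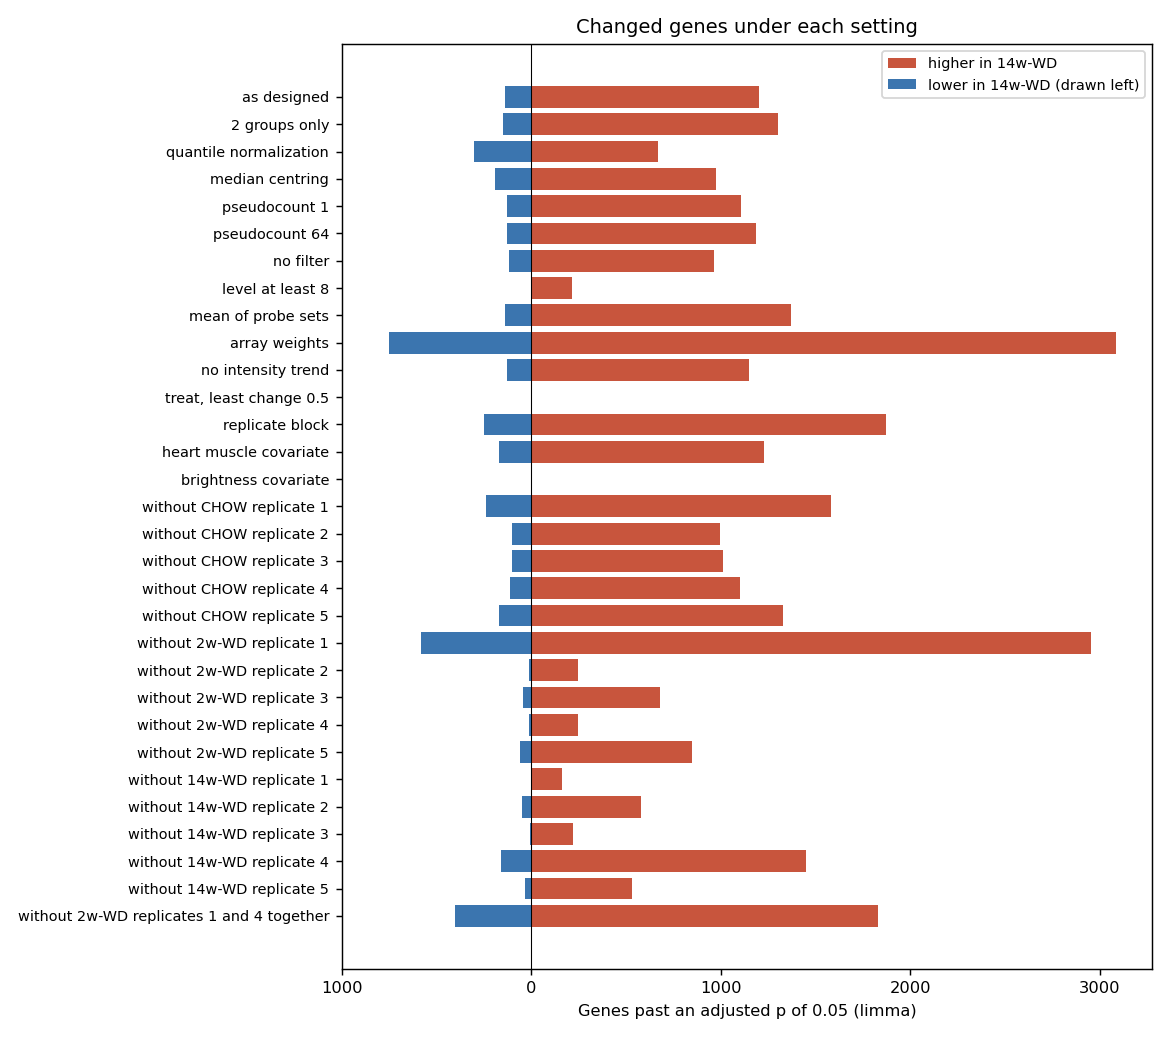
Number of genes past an adjusted p of 0.05 (limma) under each setting, with genes higher in 14w-WD drawn right and lower ones left. The bars run from 0 changed genes, with a brightness covariate or a required change of 0.5, to 3839 with array weights.

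Change depended on the level of a gene. Among genes at levels between log2 7.39 and 9.29, 16.9% of genes were higher and 0.21% lower, and the median change was 0.68. Among the dimmest genes, from 5.42 to 6.12, 5.74% were higher and 2.05% lower, with a median of 0.0063, and among the brightest, above 9.29, 4.49% and 0.126%, with a median of 0.22. Of the 1201 higher genes 213 (17.7%) had a 2w-WD mean below the filter level, against 5.78% of all genes tested. CHOW lay between the 2 diet groups for 1147 of the 1201 higher genes, beside 6584 of all 11925, and for 673 of them (56%) it lay nearer to 2w-WD (54.9% of all genes tested). Their median distance was 0.61 from 2w-WD up to CHOW and 0.76 from CHOW up to 14w-WD. The higher genes were selected for a difference between the diet groups, and CHOW falls more easily within a wide gap than within a narrow gap. The count of 1147 beside 6584 and these distances therefore do not test an order of the groups.

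**Figure D3:**
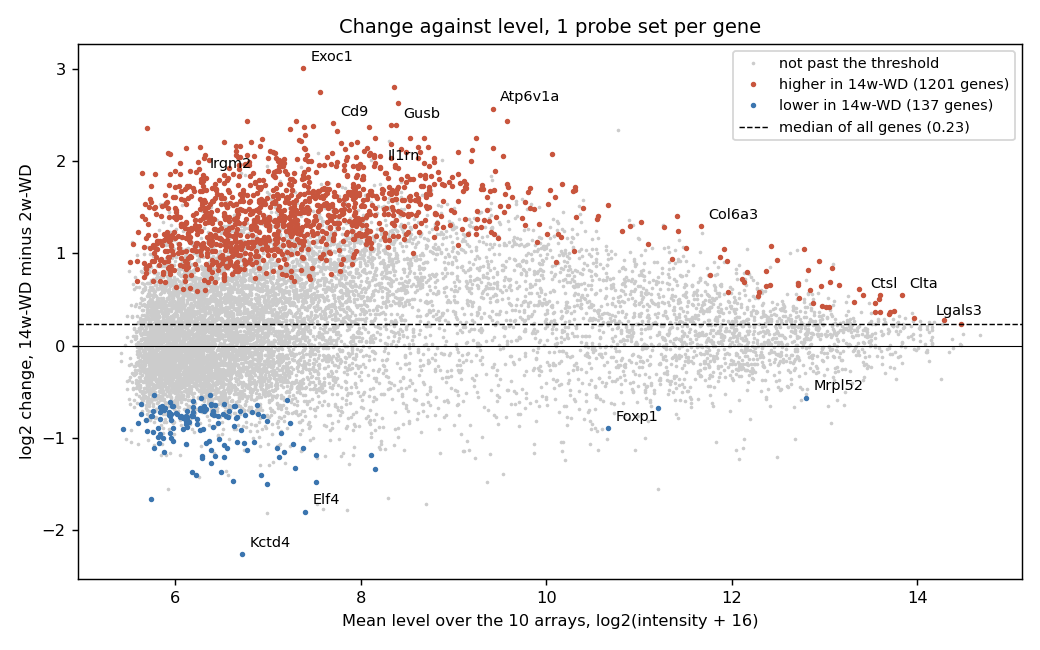
Each point is a gene, placed by its mean log2(intensity + 16) over the 10 arrays and its log2 change, 14w-WD minus 2w-WD. The 1201 higher genes are red, the 137 lower ones blue, and the dashed line is the median change of 0.23; the largest rises lie at middle levels, and bright genes such as Clta and Ctsl rose by about 0.55.

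A set of 152 genes (11.4% of the changed genes) passed in the same direction in each of the 15 fits that left out 1 array, and all 152 also passed after quantile normalization. With the brightness covariate, or with a required change of 0.5, 0 genes passed, so none of the 152 did. The set was chosen after its values were seen and is a description. It holds 149 higher genes, with a median change of 1.76, and 3 lower ones. The other changed genes lost the call without at least 1 array, so the text says which genes belong to the 152. Of the 149, 53 (35.6%) had a 2w-WD mean below the filter level, and CHOW lay nearer to 2w-WD for 90 (60.4%).

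The smallest adjusted p belonged to Galnt7, which encodes a Golgi enzyme that adds N-acetylgalactosamine to proteins. Galnt7 stood at 5.72, 5.91, 5.64, 5.16 and 5.40 on 2w-WD replicates 1 to 5, and at 7.63, 6.89, 7.64, 7.18 and 7.48 on 14w-WD replicates 1 to 5. All 14w-WD arrays were thus above all 2w-WD arrays, and CHOW, at 5.74 ± 0.38 (SD, n = 5), lay beside 2w-WD. The change was 1.80 (SE 0.22, 3.48-fold, adjusted p = 0.0022), or 1.57 relative to the median gene. Its other probe sets moved by -0.54 (adjusted p = 0.112) and 0.42 (adjusted p = 0.404). Genes named Galnt, a family chosen after these values were seen, had 5 of 10 tested members higher, Galnt7 included, and none lower. Over all genes tested 10.1% were higher and 1.15% lower. The family's median change was 1.13: Galnt11 (1.97), Galnt12 (1.88) and Galnt2 (1.68) rose, as did Galnt4 (1.21). These 4 are outside the 152.

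Panx1, a membrane channel through which cells release ATP, stood at 5.43, 5.85, 5.29, 5.34 and 5.53 in 2w-WD and at 7.20, 7.32, 7.42, 7.14 and 6.82 in 14w-WD. No array overlapped, and the change was 1.69 (SE 0.21, adjusted p = 0.0022), or 1.46 relative to the median gene. CHOW was between them at 6.64 ± 0.43. Tspan14, a tetraspanin of the cell surface, was nearly constant in 2w-WD, between 5.50 and 5.70, and stood at 8.12, 7.51, 8.37, 6.94 and 7.75 in 14w-WD (change 2.16, SE 0.34, adjusted p = 0.0055). Map2k1, which encodes the kinase MEK1, stood between 4.91 and 5.33 in 2w-WD and between 6.75 and 7.32 in 14w-WD (change 1.98, SE 0.31, adjusted p = 0.0065). Its 2w-WD levels lay below the filter level, as did those of Galnt7, Panx1 and Tspan14 on average, so the folds of these genes rest on dim signals in 2w-WD. Among genes given below, the same holds for Aif1, Axl, Eif5b and Irgm2, for example.

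Genes are given below by lists of known function, described by counts and medians, none tested as a set; the members were chosen with earlier results of these data known. Over all genes tested 10.1% were higher and 1.15% lower, so a count near these shares is not particular to its list. Among all genes between log2 7.39 and 9.29, 16.9% were higher, 0.21% were lower and the median change was 0.68. Lists at such levels are to be read beside these values. The counts rest on few arrays. For 25 lists with at least 3 higher members the count fell by more than 1.5 times in 24 without 14w-WD replicate 1, in 23 without 2w-WD replicate 2, in 22 without 14w-WD replicate 3 and in 21 without 2w-WD replicate 4. It did so in 19 without 14w-WD replicate 5, in 15 without 14w-WD replicate 2, in 12 without 2w-WD replicate 3, in 7 without 2w-WD replicate 5 and in 2 without CHOW replicate 2. It rose by more than 1.5 times in 18 without 2w-WD replicate 1, in 3 each without CHOW replicate 1 and 14w-WD replicate 4, and in 1 each without CHOW replicate 5 and 2w-WD replicate 5.

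Several lysosomal genes rose, both dim and bright ones. Of 38 tested hydrolases 12 rose and none fell (10.1% of all genes tested rose), with a median change of 0.62 against 0.23. Gusb, a glucuronidase that cleaves sugar chains, stood at 8.14, 7.66, 7.85, 5.43 and 6.84 on the 2w-WD arrays and at 10.22, 10.05, 9.46, 8.63 and 9.52 on the 14w-WD arrays. All 14w-WD values were above all 2w-WD values, with 2w-WD replicate 4 lowest, and the change was 2.39 (SE 0.54, adjusted p = 0.018). CHOW, at 9.28 ± 1.02, lay near 14w-WD. Lgmn, the protease legumain, stood at 6.41, 5.56, 6.28, 5.05 and 5.42 in 2w-WD and at 8.42, 8.35, 8.25, 6.39 and 7.63 in 14w-WD. Only 14w-WD replicate 4 fell within the 2w-WD range, just under 2w-WD replicate 1, and the change was 2.06 (SE 0.39, adjusted p = 0.011), or 1.83 relative to the median gene.

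The abundant cathepsins rose by less. Ctsl, the cysteine protease cathepsin L, stood at 13.24, 13.10, 13.39, 12.63 and 13.34 in 2w-WD and at 13.72, 13.76, 13.71, 13.64 and 13.61 in 14w-WD. The groups did not overlap, and the change was 0.55 (SE 0.12, adjusted p = 0.015), 0.32 above the median gene; its other probe set moved by 1.22 (adjusted p = 0.012). Ctsd, an aspartic protease, rose by 0.55 (adjusted p = 0.025), Ctsb by 0.27 (adjusted p = 0.028) and Ctsk, a collagen-cleaving cathepsin, by 1.08 (adjusted p = 0.032). Lipa, which encodes lysosomal acid lipase, the enzyme that cleaves cholesteryl esters, rose by 0.61 (adjusted p = 0.037), and Psap, the precursor of activator proteins for sphingolipid digestion, by 0.29 (adjusted p = 0.042). Ids (1.74), Galc (1.72), Manba (1.47) and Acp5 (1.58) also rose. Lgmn and Ctsl belong to the 152, and the count of 12 ranged from 2 without 14w-WD replicate 1 to 19 without 2w-WD replicate 1.

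Of 17 tested subunits of the proton pump 2 rose (11.8%, beside 10.1% of all genes) and none fell, with a median of 0.40. Both are in the 152. Atp6v1a, the subunit that binds ATP, stood at 9.03, 8.05, 8.47, 6.76 and 8.36 in 2w-WD and at 10.99, 10.62, 10.75, 10.41 and 10.76 in 14w-WD. It was more than 1 log2 unit higher on each 14w-WD array than on any in 2w-WD, a change of 2.57 (SE 0.45, 5.95-fold, adjusted p = 0.0085), or 2.34 relative to the median gene. CHOW was at 9.75 ± 0.94, and a further Atp6v1a probe set moved by 0.72 (adjusted p = 0.172). Atp6v1h, another subunit of the cytosolic part, rose by 2.21 (SE 0.44, adjusted p = 0.013), while its other probe set fell by 0.84 (adjusted p = 0.019), so the probe sets of this gene disagree. Of 23 genes of the lysosomal membrane and its biogenesis 5 rose, namely Gnptab (1.50), Slc38a9 (1.59), Clcn7 (1.54), Lamp1 (0.37) and Npc2, the cholesterol carrier of the lysosome (0.23); of these Npc2 equalled the median gene. None of the 5 is in the 152, and 0 passed without 14w-WD replicate 1 or 14w-WD replicate 3. Of 29 autophagy genes 6 rose and Wipi2 fell by 0.84 (adjusted p = 0.04; 0.0047 as the mean of its probe sets), with Gabarapl2, a protein of the autophagosome membrane, in the 152 (change 1.21, adjusted p = 0.011).

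Promoters of 3 of these lysosomal genes are printed because they hold the E-box CACGTG, the core of the element that the factors TFEB and TFE3 are known to bind in lysosomal genes. The sequences run 5′ to 3′ along the gene from 250 bases before to 50 after the start, from RefSeq (GRCm38.p6), with each CACGTG in capitals.
Lamp1, chr8:13158911-13159210, plus strand: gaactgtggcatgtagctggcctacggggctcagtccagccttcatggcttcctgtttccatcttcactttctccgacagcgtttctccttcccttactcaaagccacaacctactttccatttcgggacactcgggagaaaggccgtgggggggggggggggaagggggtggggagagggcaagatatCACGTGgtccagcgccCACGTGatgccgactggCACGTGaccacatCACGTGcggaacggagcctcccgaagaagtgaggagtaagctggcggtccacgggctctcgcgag
Ctsd, chr7:142387778-142388077, minus strand: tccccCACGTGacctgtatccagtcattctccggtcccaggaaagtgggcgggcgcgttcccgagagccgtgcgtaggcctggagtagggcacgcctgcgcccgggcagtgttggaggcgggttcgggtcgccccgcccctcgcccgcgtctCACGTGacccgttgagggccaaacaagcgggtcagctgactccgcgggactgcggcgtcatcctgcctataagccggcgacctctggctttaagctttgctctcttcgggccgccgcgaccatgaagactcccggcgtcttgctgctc
Atp6v1a, chr16:44139210-44139509, minus strand: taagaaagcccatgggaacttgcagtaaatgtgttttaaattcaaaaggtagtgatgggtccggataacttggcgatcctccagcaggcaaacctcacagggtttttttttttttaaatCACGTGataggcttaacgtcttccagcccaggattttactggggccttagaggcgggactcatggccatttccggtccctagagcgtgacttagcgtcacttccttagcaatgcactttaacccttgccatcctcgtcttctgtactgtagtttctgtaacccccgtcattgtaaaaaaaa
Lamp1 holds 4 matches, the first at -61 from the start, Ctsd holds 2, and Atp6v1a holds 1, at -131. CACGTG is its own reverse complement, so both strands were searched at once. It was found in 20 of 64 lysosomal genes with a promoter in the table (31.2%), in 6 of the 17 higher ones (35.3%) and in 14 of the 47 not called (29.8%). Among all tested genes 11.2% held it, and among all higher genes 13.0%. A match is a description and not a binding site.

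**Figure D4:**
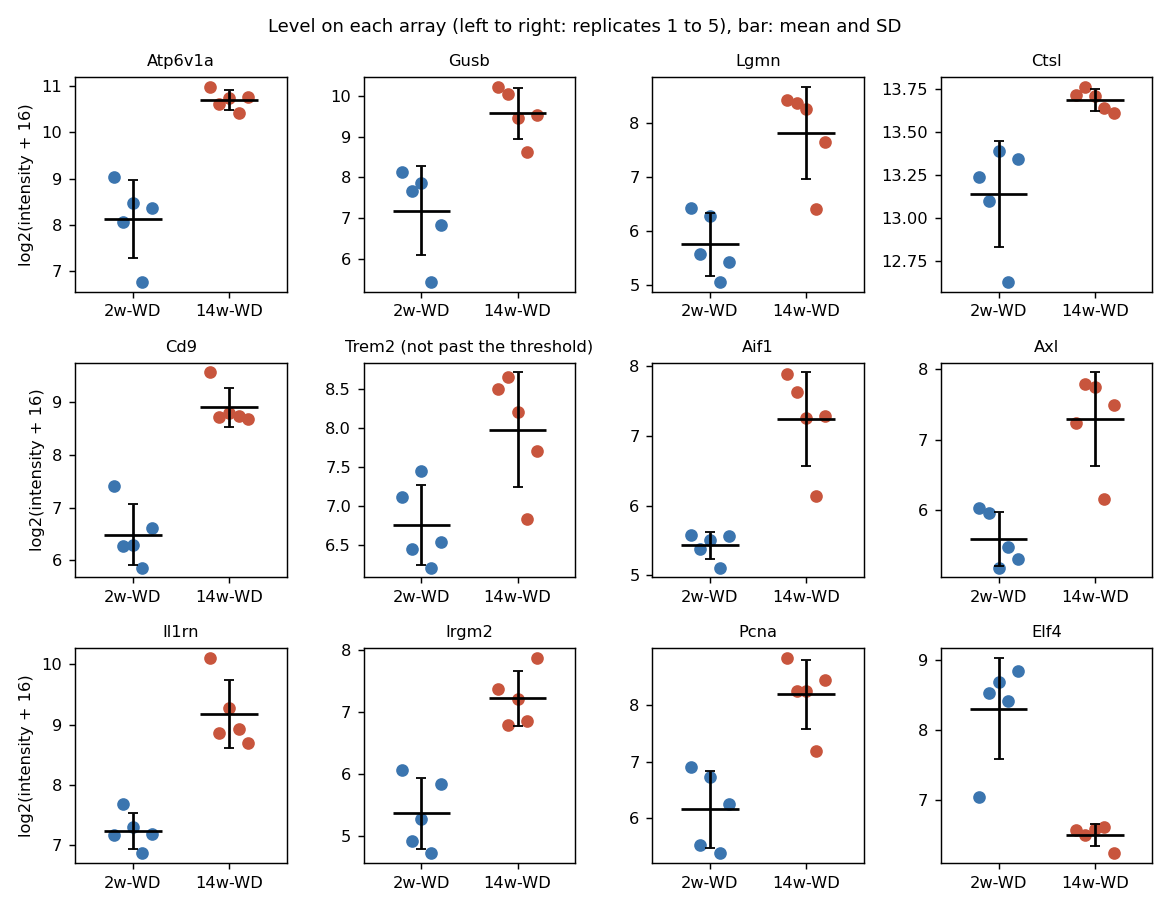
Log2(intensity + 16) of 12 genes on each array, 2w-WD in blue and 14w-WD in red, replicates 1 to 5 from left to right, with the mean and a bar of 1 SD (n = 5). Atp6v1a stood at 8.13 ± 0.84 in 2w-WD and 10.71 ± 0.21 in 14w-WD; Trem2 did not pass the test, and Elf4 is the gene that was lower.

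Of 24 measured macrophage identity genes 22 were bright enough for the test. Spi1 (5.10 and 5.20) and Itgam (4.80 and 5.04) lay below the filter level in both groups, and heart muscle signal was present on the same arrays (Myh6 at 14.44 and 14.08). Adgre1, which encodes F4/80, lay between 12.51 and 13.08 in 2w-WD and between 12.87 and 13.01 in 14w-WD, and its difference of 0.14 did not pass (adjusted p = 0.455). Cd68 stood at 10.76 ± 0.33 and 11.45 ± 0.35 (SD, n = 5; difference 0.69, adjusted p = 0.156). The 22 tested identity genes averaged 11.07 ± 0.21 in 2w-WD and 11.51 ± 0.18 in 14w-WD (exact permutation p = 0.0238, adjusted p = 0.0476 over 4 cell types). These 4 were grouped after the design was set and leave out heart muscle (exact permutation p = 0.381). An adjustment that includes it was not made and would give larger values, above 0.05 for this mean and for that of fibroblast and matrix genes. The means were not corrected for the brightness difference between the groups. Of the 22 genes 2 rose (9.09%, beside 10.1% of all genes). Aif1, which encodes the actin-bundling protein IBA1, stood at 5.58, 5.38, 5.50, 5.11 and 5.57 in 2w-WD and at 7.89, 7.64, 7.26, 6.14 and 7.28 in 14w-WD. The groups did not overlap, although 14w-WD replicate 4 was low, and the change was 1.82 (SE 0.33, adjusted p = 0.011; in the 152). Tyrobp, the adaptor of TREM2 and related receptors, rose by 0.38 (adjusted p = 0.026). In bulk material such as this, fewer cells of a type and less RNA per cell cannot be told apart.

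The lipid-associated macrophage genes, named for lipid-laden macrophages of fat and lesions, had 8 of 22 members higher (36.4%, beside 10.1% of all genes) and none lower. All 22 lay above 0 (median 0.46), as did 65.2% of all genes tested. Cd9, a tetraspanin of that signature, stood at 7.41, 6.27, 6.29, 5.86 and 6.62 in 2w-WD and at 9.57, 8.73, 8.79, 8.75 and 8.69 in 14w-WD. The lowest 14w-WD array was more than 1 log2 unit above the highest in 2w-WD, and the change was 2.42 (SE 0.42, 5.34-fold, adjusted p = 0.0085; in the 152). Ctsl, Ctsd, Ctsb, Ctsk and Lipa, shared with the hydrolases, make up 5 of the 8. Anxa5, which binds the phosphatidylserine of dying cells, rose by 0.65 (adjusted p = 0.026), and Plin2, the coat protein of lipid droplets, by 0.37 (adjusted p = 0.049). Trem2, the lipid-sensing receptor, stood at 6.75 ± 0.52 and 7.98 ± 0.73 (SD, n = 5; difference 1.23, adjusted p = 0.062). Lgals3, which encodes galectin-3, stood at 14.00 ± 0.18 and 14.25 ± 0.09 (adjusted p = 0.051), and Gpnmb at 13.43 ± 0.21 and 13.72 ± 0.10 (adjusted p = 0.1). The count of 8 was lowest, at 2, without 2w-WD replicate 2, 14w-WD replicate 1, 2 or 3.

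Genes that clear dead cells had 3 of 27 members higher (11.1%, beside 10.1% of all genes) and 1 lower (median 0.54). Axl, a receptor for bridging proteins on dead cells, stood at 6.04, 5.97, 5.19, 5.48 and 5.31 in 2w-WD and at 7.24, 7.79, 7.75, 6.16 and 7.49 in 14w-WD. The groups did not overlap, with 14w-WD replicate 4 closest to 2w-WD, and the change was 1.69 (SE 0.34, adjusted p = 0.013; in the 152). Tyro3, a receptor of the same family, fell by 0.71 (adjusted p = 0.032). Dock2 (1.87, adjusted p = 0.015) and Dock1 (1.82, adjusted p = 0.017), which activate the GTPase Rac in cell movement and engulfment, rose. The complement genes C1qa (1.38, adjusted p = 0.1) and C1qc (1.41, adjusted p = 0.06) did not pass. Of 12 Fc receptor genes (8.33% higher) Fcgr3 alone rose (1.53, adjusted p = 0.046).

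Abca1, the main exporter of cholesterol, stood at 12.55 ± 0.17 in 2w-WD and 12.71 ± 0.07 in 14w-WD (SD, n = 5; difference 0.16, adjusted p = 0.524). Of 17 efflux and liver X receptor target genes 4 rose (23.5%, beside 10.1% of all genes; median 0.28): Scd2, a fatty acid desaturase (1.63, adjusted p = 0.02), Rxra, the partner of the liver X receptors (0.96, adjusted p = 0.043), Smpdl3a (0.92, adjusted p = 0.038) and Npc2. Of 17 scavenger and lipoprotein receptors none passed in either direction (limma; 1 at an unadjusted p under 0.05; 0 also without any single array), with a median of 0.37 and Cd36 at 0.76 (adjusted p = 0.22). Of 15 sterol synthesis genes Cyp51 (1.41, adjusted p = 0.035), Dhcr7 (1.47, adjusted p = 0.038) and Lss (0.76, adjusted p = 0.042) rose, all enzymes downstream of squalene. Hmgcs1 (-0.28, adjusted p = 0.33) and Sqle (-0.39, adjusted p = 0.34) did not pass, and no member passed after quantile normalization. Of 30 fatty acid and lipid droplet genes Scd2 and Plin2 rose, and Dgat2, which completes triglycerides, fell by 1.04 (adjusted p = 0.039) on a dim probe set; its other probe set moved by 0.04 (adjusted p = 0.967). Apoe, which these mice lack as a working gene, was too dim for the test, at 5.01 ± 0.30 and 5.34 ± 0.31.

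Il1rn, the secreted antagonist of the interleukin-1 receptor, stood at 7.16, 7.69, 7.29, 6.87 and 7.19 in 2w-WD and at 10.10, 8.87, 9.28, 8.93 and 8.70 in 14w-WD. All 14w-WD arrays were higher by at least 1 log2 unit, and the change was 1.94 (SE 0.36, adjusted p = 0.011; in the 152). Its other probe sets moved by -0.13 (adjusted p = 0.668) and 0.71 (adjusted p = 0.268). Il18 rose by 0.89 (adjusted p = 0.027), whereas Il1b stood at 6.54 ± 0.54 and 6.22 ± 0.44 (adjusted p = 0.415). Tnf and Il6 lay below the filter level in the mean over all 15 arrays and were not tested. Il6 stood at 5.38 ± 0.88 in 2w-WD and 6.47 ± 1.43 in 14w-WD (SD, n = 5), and Tnf at 5.26 ± 0.45 and 5.77 ± 0.35. These 2 rises were among 19 tested genes of the cytokine list (10.5%, beside 10.1% of all genes), whose median of 0.30 became -0.01 after quantile normalization. Of 20 chemokines and receptors (5%) Cxcl12 alone rose (1.14, adjusted p = 0.021), and that list's median of 0.33 became -0.0002 after quantile normalization.

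Of 29 Toll-like receptor and NF-kB genes 3 rose (10.3%, beside 10.1% of all genes) and none fell (median 0.68). Relb, an NF-kB subunit, stood at 5.28, 5.16, 4.21, 4.79 and 4.81 in 2w-WD, which is below the filter level, and at 7.36, 6.25, 7.46, 5.98 and 6.52 in 14w-WD. The groups did not overlap (change 1.87, SE 0.35, adjusted p = 0.011; in the 152). Tlr4, the receptor for lipopolysaccharide, rose by 1.59 (adjusted p = 0.018) and Tlr13, a receptor for bacterial ribosomal RNA, by 1.16 (adjusted p = 0.035). Outside this list, Tollip, an adaptor that restrains these receptors, rose by 1.76, and Tradd, an adaptor of the TNF receptor, by 1.43. Both are in the 152 and were picked after their values were seen. Among 23 immediate early genes (13% higher) Atf3 (1.99, adjusted p = 0.0065) and Klf6 (2.17, adjusted p = 0.014), both in the 152, rose with Ier5 (1.71, adjusted p = 0.042). Atf3, a stress-induced transcription factor, stood between 5.70 and 6.75 in 2w-WD and between 7.44 and 8.54 in 14w-WD. A further Klf6 probe set rose by 1.48 (adjusted p = 0.02).

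Interferon-inducible GTPases, 11 of which were tested, had 4 higher members (36.4%, beside 10.1% of all genes) and none lower. Their median change of 1.08 became 0.50 after quantile normalization, when the median of all genes was 0.0109. Irgm2, a GTPase that acts on the membranes of vacuoles and lysosomes, stood at 6.07, 4.92, 5.29, 4.73 and 5.84 in 2w-WD and at 7.38, 6.79, 7.21, 6.86 and 7.87 in 14w-WD. The groups did not overlap (change 1.85, SE 0.34, adjusted p = 0.011; in the 152), and CHOW was at 5.87 ± 0.73. Ifi47 (1.88, adjusted p = 0.018), Gbp6 (1.47, adjusted p = 0.031) and Gbp3 (1.33, adjusted p = 0.047) rose too, while Gbp2 was at a difference of 0.25 (adjusted p = 0.57). The count of 4 became 1 without 2w-WD replicate 2, 14w-WD replicate 1 or 14w-WD replicate 3, and 7 without 2w-WD replicate 1. Of 29 interferon-stimulated genes 5 rose and 1 fell (median 0.32): Ifit2 (2.44), Bst2 (1.54), Zbp1 (1.30), Irf1 (1.20) and Ifih1 (1.15) were higher, and Ddx58, the RNA sensor RIG-I, fell by 0.95 (adjusted p = 0.031). Ifit2 varied widely in both groups, from 4.25 to 7.56 in 2w-WD and from 6.80 to 9.59 in 14w-WD, and these ranges overlap. After quantile normalization 2 of the 29 were higher and 3 lower.

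The Irgm2 promoter is shown for its interferon element, searched as GAAANNGAAA and, for the other strand, TTTCNNTTTC, with N any base; the motif was chosen after the values were known. It runs from 250 bases before to 50 after the start (RefSeq, GRCm38.p6), with the match in capitals.
Irgm2, chr11:58214727-58215026, plus strand: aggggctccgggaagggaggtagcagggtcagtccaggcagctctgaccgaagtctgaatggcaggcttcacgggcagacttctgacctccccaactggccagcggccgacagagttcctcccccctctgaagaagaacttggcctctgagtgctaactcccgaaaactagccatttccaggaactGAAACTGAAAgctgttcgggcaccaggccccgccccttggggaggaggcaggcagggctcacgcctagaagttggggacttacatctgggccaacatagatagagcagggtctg
The match begins at -64 from the start. The element occurred in 16 of 28 interferon genes with a promoter in the table (57.1%), in 4 of 7 higher and 11 of 20 not called, and in 3.74% of all tested genes. Of the antigen presentation genes of class I, 3 of 14 rose (median 0.71): the immunoproteasome subunits Psmb8 (2.10, adjusted p = 0.037) and Psmb10 (1.72, adjusted p = 0.026), and H2-D1 (1.30, adjusted p = 0.044), whose probes may read related class I genes. None of 12 class II genes passed limma's test, and 2 had an unadjusted p under 0.05, with H2-Eb1 at 1.78 (adjusted p = 0.06) and Cd74 at 0.97 (adjusted p = 0.19).

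**Figure D5:**
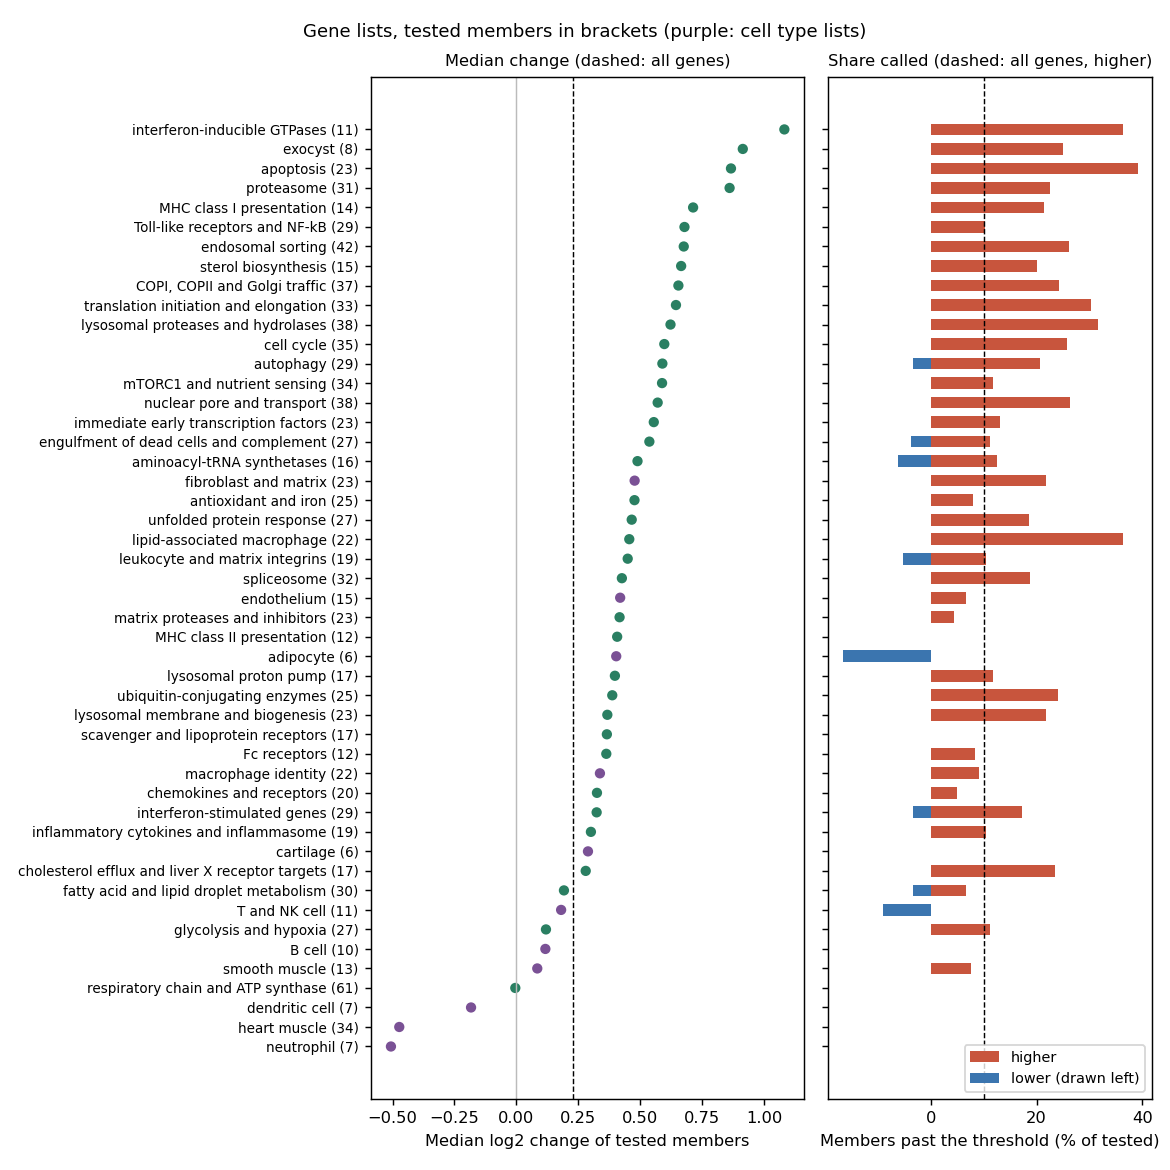
Left, median log2 change of each gene list (number of tested members in brackets), with cell type lists in purple, process lists in green and a dashed line at 0.23, the median of all genes. Right, percent of members higher (red) or lower (blue, drawn left), with a dashed line at the 10.1% of all genes that were higher; lists share members, and no list was tested as a set.

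Exoc1, a subunit of the exocyst, which tethers secretory vesicles to the cell membrane, had the largest change of all, 3.01 (SE 0.73, 8.05-fold, adjusted p = 0.022). It stood at 6.06, 4.29, 6.93, 4.28 and 7.81 in 2w-WD and at 9.36, 9.08, 8.88, 7.94 and 9.17 in 14w-WD. The 2w-WD values spread over more than 3 log2 units but stayed below all 14w-WD values; Exoc1 is outside the 152, and its other probe set moved by -0.57 (adjusted p = 0.126). Exoc2 rose by 0.95 (adjusted p = 0.041), and the 8 exocyst genes had a median of 0.91. Rab9, a GTPase of transport from late endosomes to the Golgi, stood at 9.18, 8.20, 8.41, 7.68 and 9.03 in 2w-WD and at 10.34, 9.97, 10.30, 10.71 and 10.65 in 14w-WD. Its groups did not overlap (change 1.90, SE 0.32, adjusted p = 0.0074; in the 152). Of 42 tested Rab genes 9 rose (21.4%, beside 10.1% of all genes) and none fell (median 0.62). Among the 9 were Rab42 (1.49), Rab8b (1.29), Rab35 (1.26) and Rab18 (1.25).

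Among proteins that fuse vesicles, Stx12, a syntaxin of endosomes, rose by 2.38 (SE 0.43, adjusted p = 0.011), and its other probe set rose by 1.36 (adjusted p = 0.03). Stx12 levels lay between 6.06 and 7.55 in 2w-WD and between 8.78 and 9.60 in 14w-WD, without overlap. Stxbp3, which binds syntaxins, rose by 1.89 (adjusted p = 0.0045), Napg, which helps to take fusion complexes apart, by 2.15 (adjusted p = 0.015), and Bet1, of Golgi transport, by 2.14 (adjusted p = 0.012). Clta, a light chain of clathrin and one of the brightest probe sets, stood between 13.08 and 13.75 in 2w-WD and between 13.93 and 14.29 in 14w-WD (change 0.55, SE 0.11, adjusted p = 0.014). These 5 genes belong to the 152. Of 42 endosomal sorting genes 11 rose and none fell (median 0.68), for example Snx27 (2.01), Vps36 (1.88), Tsg101 (1.64) and Vps35 (1.55), but 0 passed without 2w-WD replicate 4, 14w-WD replicate 1 or 14w-WD replicate 3. All genes between log2 7.39 and 9.29 had the same median of 0.68, with 16.9% higher and 0.21% lower. Sorting nexins rose in 8 of 25 tested members (32%, beside 10.1% of all genes, with a median of 0.72). Of 37 COPI, COPII and Golgi genes 9 rose and none fell (median 0.65), with Sec13 (1.85) and Sec24d (1.69) of the vesicle coat.

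Genes of protein synthesis and of protein breakdown were among those that rose. Of 33 translation factors 10 rose (30.3%, beside 10.1% of all genes) and none fell (median 0.64). Eif5b, which joins the ribosomal subunits, stood between 5.08 and 5.75 in 2w-WD and between 6.41 and 7.01 in 14w-WD (change 1.39, SE 0.22, adjusted p = 0.0055; in the 152). Eif2a (2.03), Eef1b2 (2.01), Eef2 (1.58) and Eif4e, which binds the messenger cap (1.21, but -0.0019 as the mean of its probe sets), rose, while Eef1a1, among the brightest genes, rose by 0.34. Of 31 proteasome genes 7 rose (22.6%, beside 10.1% of all genes) and none fell (median 0.86). Psmd10 stood between 5.42 and 6.59 in 2w-WD and between 7.17 and 7.72 in 14w-WD (change 1.61, SE 0.27, adjusted p = 0.0074; in the 152). Psmc6 (1.70), Psmd2 (1.67) and Psma7 (1.50) rose as well. Of 25 ubiquitin-conjugating enzymes and their activators 6 rose, with Uba3 at 1.93 and Uba6 at 1.70. Of 16 aminoacyl-tRNA synthetases Tars (1.84) and Gars (1.53) rose and Cars fell by 0.77 (adjusted p = 0.026). The proteasome count was 1 without 14w-WD replicate 1, and the translation count was 1 without 14w-WD replicate 1, 14w-WD replicate 3 or 2w-WD replicate 4.

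Of 27 genes of the unfolded protein response 5 rose and none fell (median 0.47): Pdia6 (2.09, adjusted p = 0.023) and Hsp90b1 (1.59, adjusted p = 0.027), which fold proteins in the endoplasmic reticulum, Manf (1.32), Edem1 (1.46) and Ddit3, which encodes CHOP (1.35). Hspa5, the main chaperone of that compartment, was at a difference of 0.45 (adjusted p = 0.12). Of 34 genes of mTORC1 and nutrient sensing 4 rose (11.8%, beside 10.1% of all genes) and none fell (median 0.59). After quantile normalization 3 were higher and 4 lower. The 4 that rose were Fnip1 (1.89, adjusted p = 0.012, in the 152), Rheb, the GTPase that activates the kinase (1.11), Seh1l (1.19) and Lamtor3 (0.66), part of its platform on the lysosome. Mtor itself was at -0.81 (adjusted p = 0.05).

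Cell cycle genes had 9 of 35 members higher (25.7%, beside 10.1% of all genes) and none lower (median 0.60). Pcna, the clamp that holds DNA polymerase, stood at 6.90, 5.52, 6.72, 5.39 and 6.25 in 2w-WD and at 8.82, 8.24, 8.25, 7.18 and 8.43 in 14w-WD. No array overlapped between groups (change 2.03, SE 0.40, adjusted p = 0.012; in the 152). Mcm6 (2.13, adjusted p = 0.023), Rrm1 (1.54, adjusted p = 0.029) and Mcm3 (0.61, adjusted p = 0.039) of DNA replication rose, as did Aurka (1.73), Top2a (1.33), Ccne1 (1.39), Cdk4 (1.28) and Cdk6 (1.13). Cdk1 (0.66, adjusted p = 0.1) and Ccna2 (0.89, adjusted p = 0.12) did not pass, and 1 member passed without 2w-WD replicate 2 or 14w-WD replicate 3. Apoptosis genes had 9 of 23 members higher (39.1%, beside 10.1% of all genes) and none lower (median 0.87). Their roles are opposing: Casp8 (1.14), Casp6 (1.35), Fadd (0.91), Bid (0.87) and Bak1 (1.37) promote cell death, whereas Cflar (1.58) and Birc2 (1.53) restrain it. None of the 9 is in the 152, and 0 passed without 2w-WD replicate 2 or 4, or 14w-WD replicate 1 or 3.

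Nuclear pore and transport genes had 10 of 38 members higher (26.3%, beside 10.1% of all genes) and none lower (median 0.57). Nup50 (2.33, adjusted p = 0.019), Nup107 (2.07, adjusted p = 0.022) and Tnpo1, an import receptor (2.04, adjusted p = 0.016; in the 152), led them. Of 32 spliceosome genes 6 rose (median 0.43), with U2af2, which recognises the end of introns, at 1.52 (adjusted p = 0.017), yet none of the 6 had groups without overlap. Of 18 tested heterogeneous nuclear ribonucleoproteins Hnrnpm (2.36), Hnrnph1 (1.85), Hnrnpa0 (1.84) and Hnrnph2 (1.81) rose, and Hnrnpm, Hnrnpa0 and Hnrnph2 are in the 152.

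Respiratory chain genes made no call. Of 61 such genes, those of ATP synthase included, none passed in either direction (limma; 4 higher and 2 lower at an unadjusted p under 0.05), with a median change of -0.0043, which is 0.23 below the median gene, and 30 of 61 above 0. Without 2w-WD replicate 1, 8 of them were higher, and after quantile normalization 1 was lower. Of 27 glycolysis and hypoxia genes Pkm (1.30, adjusted p = 0.028), Pfkp (1.81, adjusted p = 0.035) and Eno2 (1.20, adjusted p = 0.031) rose (11.1%, beside 10.1% of all genes). The list's median was 0.12, or -0.04 after quantile normalization. Mitochondrial ribosomal proteins had 5 of 68 members higher (7.35%) and 1 lower (median 0.53), and cytosolic ones 1 of 40 higher (2.5%, median 0.19). Antioxidant genes had 2 of 25 higher (8%), Gpx1 (0.48, adjusted p = 0.043) and Txn1 (0.65, adjusted p = 0.047).

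Slc39a10, a zinc importer, stood at 7.89, 7.06, 8.08, 5.40 and 7.22 in 2w-WD and at 9.40, 8.67, 9.82, 9.82 and 9.93 in 14w-WD. Its groups did not overlap (change 2.40, SE 0.48, adjusted p = 0.013), and Slc39a6, a related importer, rose by 1.73 (adjusted p = 0.0094); both are in the 152. Solute carriers as a family had 24 of 219 tested members higher and 3 lower, a share of 11% beside the 10.1% of all genes, with a median of 0.14. Of other large rises, Cmpk1 (2.63), a kinase of pyrimidine nucleotides, Tmem38b (2.81), a potassium channel of the endoplasmic reticulum, Ggh (2.44), a lysosomal hydrolase of folates, Rnh1 (2.44), an inhibitor of ribonucleases, and Tubb6 (2.39), a tubulin, are in the 152. Cspg4 (2.75, adjusted p = 0.023), a proteoglycan known from pericytes, is not. Among genes with a mean level of at least 9, Dock10 (2.12), Mrps14 (2.10), Ppp1r12a, a regulatory subunit of myosin phosphatase (2.08), and Oat, ornithine aminotransferase (2.06), also rose, and the groups overlapped for Oat.

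Markers of other cells of the aortic root moved with the contrast to different degrees. The 34 tested heart muscle genes averaged 10.23 in 2w-WD and 9.72 in 14w-WD, between 9.42 and 11.67 and between 8.84 and 10.70 on single arrays (exact permutation p = 0.381). None passed limma's test, 0 even at an unadjusted p under 0.05, 29 of 34 lay below 0, and Myh6, the cardiac myosin, stood at 14.44 ± 0.26 and 14.08 ± 0.42 (adjusted p = 0.696), a bright signal in both. Fitted with the mean of these heart muscle genes as covariate, 1226 genes were higher and 168 lower. Fibroblast and matrix genes averaged 10.17 ± 0.35 and 10.85 ± 0.31 (exact permutation p = 0.0238, adjusted p = 0.0476 over the same 4). These 4 leave out heart muscle, with which the adjusted p would lie above 0.05. Of the fibroblast and matrix genes 22 of 23 lay above 0 and 5 of 23 were higher: Pdgfra (1.95, adjusted p = 0.029), Fbln1 (1.64, adjusted p = 0.016), Col6a3 (1.30, adjusted p = 0.026), Col1a1 (1.05, adjusted p = 0.04) and Fn1 (0.92, adjusted p = 0.02). Col6a3, a chain of collagen VI, lay between 10.08 and 11.95 in 2w-WD and between 12.14 and 12.73 in 14w-WD. Without 14w-WD replicate 1, 0 of the fibroblast genes passed.

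Mmp3, a matrix protease also made by fibroblasts, stood between 6.74 and 9.02 in 2w-WD and between 9.81 and 11.45 in 14w-WD. Without overlap between groups the change was 2.25 (SE 0.54, adjusted p = 0.021), and Mmp3 was the only one of 23 matrix proteases and inhibitors to pass. Smooth muscle genes averaged 8.50 and 8.81 (exact permutation p = 0.262), with Mylk alone higher (2.09, adjusted p = 0.034) and Acta2 at 13.23 ± 0.09 and 13.17 ± 0.48 (adjusted p = 0.846). Endothelial genes averaged 7.38 and 7.61 (exact permutation p = 0.397), with Nos3 alone higher (0.70, adjusted p = 0.049), and Pecam1 below the filter level at 5.34 and 5.37. Of 11 T and NK cell genes Ncr1 fell by 0.87 (adjusted p = 0.023). None of 10 B cell, 7 dendritic cell, 7 neutrophil and 6 cartilage genes passed limma's test, with 2, 0, 2 and 2 at an unadjusted p under 0.05, and neutrophil genes had a median of -0.51. Of 6 adipocyte genes Lep fell by 0.84 (adjusted p = 0.04). The part of fibroblasts in the results on other genes was not tested.

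Lower genes were fewer, dimmer and smaller in change, and 3 of the 137 are in the 152. Elf4, a transcription factor of the ETS family, stood at 7.05, 8.53, 8.69, 8.41 and 8.84 in 2w-WD and at 6.57, 6.50, 6.58, 6.61 and 6.24 in 14w-WD. All 14w-WD arrays were lower, with 2w-WD replicate 1 closest to them, and the change was -1.80 (SE 0.36, adjusted p = 0.012), or -2.03 relative to the median gene. Its other probe set moved by -0.36 (adjusted p = 0.342). Ptafr, the receptor for platelet-activating factor, stood between 6.18 and 6.75 in 2w-WD and between 4.93 and 5.80 in 14w-WD (change -1.12, SE 0.21, adjusted p = 0.012). Tex15, known from meiosis in the testis, stood between 6.03 and 6.67 and between 4.92 and 5.65 (change -0.95, SE 0.19, adjusted p = 0.013). The largest fall was that of Kctd4, at 6.08, 7.29, 8.19, 8.47 and 9.24 in 2w-WD and 4.91, 5.63, 5.73, 6.04 and 5.62 in 14w-WD (change -2.27, SE 0.57, adjusted p = 0.024). Hlf, a transcription factor of the circadian output, fell by 1.38 (adjusted p = 0.02), and Camk2d, a calcium-dependent kinase of heart muscle and other cells, by 1.23 (adjusted p = 0.027). Ccnjl (-1.50) and Celf4 (-1.40) fell without overlap, whereas the groups overlapped for Sbsn (-1.48), Fam83e (-1.47), Ddx10 (-1.33), Gdf11 (-1.27) and Mamld1 (-1.21). Among genes with a mean level of at least 9 only 3 fell, and Tmem223 (-0.67, adjusted p = 0.041) was one of them.

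Some lower calls were not shared by the gene's other probe sets. Itgb1, the integrin beta 1 chain, stood at 7.02, 7.27, 8.29, 8.01 and 8.00 in 2w-WD and at 6.39, 6.50, 6.36, 6.70 and 6.62 in 14w-WD on the probe set used (change -1.21, SE 0.27, adjusted p = 0.017). Its other probe sets moved by 2.03 (adjusted p = 0.0078) and 0.41 (adjusted p = 0.375), so the direction of Itgb1 is not settled. Foxp1, a transcription factor of monocyte maturation, fell by 0.89 (adjusted p = 0.028) without overlap, but 5 of its 6 other probe sets lay above 0, none past the threshold. Mrpl52, of the mitochondrial ribosome, fell by 0.56 (adjusted p = 0.02), while its others moved by 0.71 (adjusted p = 0.087) and 0.86 (adjusted p = 0.174).

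Probe sets read different stretches of a transcript on the same arrays. The 413 higher genes with further probe sets at or above the filter level had 575 of them, of which 69% lay above 0, 95 (16.5%) passed as higher and 7 passed as lower. Among genes that were not called, 66.8% of 5903 further probe sets lay above 0. The 28 lower genes had 37 further probe sets, of which 45.9% lay below 0, 1 passed as lower and 1 as higher. Of 68 further probe sets of the 152 genes 51 had the gene's sign.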

How the data were processed

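The authors deposited linear intensities of each probe set of the arrays in 1 table of the whole series; their summarisation and scaling are not given in the sources used here. Per the labels' protocols, RNA of laser-captured cells was extracted with PicoPure and amplified with RiboAMP HS, which can add spread between arrays. Values were taken as log2(intensity + 16), 1 probe set per gene (highest mean over 15 arrays). Of 45037 probe sets, 34945 had 1 gene symbol, 932 several and 9160 none, giving 18193 genes, of which 11925 had a mean at or above log2 5.66. Limma 3.58.1 (R 4.3.3; lmFit, eBayes with an intensity trend, all 15 arrays) tested 14w-WD against 2w-WD with Benjamini-Hochberg adjustment over all tested genes. The number of arrays limits the precision. On simulated data of 11925 genes the test recovered 35 of 100 genes changed by log2 1 and 88 of 100 changed by log2 2, and called 5 unchanged genes. The simulated noise was independent between genes, equal in spread in all groups, and without a brightness difference between arrays. The real arrays differ in these respects, so the simulation gives neither the share of changes found nor the number of false calls on them.

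Exact permutation tests are two-sided. Named genes are the 12 largest rises and falls, the 8 largest at a mean level of at least 9, up to 4 called members (otherwise 2 not called) of each list, and fixed genes such as Abca1; the others, among them Galnt7, Panx1 and members of symbol families, were chosen after their values were seen. Members and lists were chosen with earlier results of these data known. Alternatives changed the arrays fitted, scaling, pseudocount, filter, probe set choice, array weights, trend, least change, replicate block, and covariates. No 2 arrays held identical values. Replicate numbers were not used to pair the samples in the main fit. Control probe sets for RNA quality are not analysed here, nor are genes without a probe set of their own, such as Spp1.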

Additional observations from a re-analysis of the deposited data

Results flagged for a closer look

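In groups of 5 arrays, 33 of 416 groups of values held an array far from the others, its gap to the nearest taking more than 0.71 of the range. The groups were of the genes named above and of a few array measures such as brightness, and all flagged ones were of genes. That is 7.93% of groups, where chance gives about 1 in 20, or 20.8 groups. The groups share the same arrays, and many of the genes were named because they were called. They are therefore not independent, and no conclusion is drawn from 33 against 20.8. The arrays most often concerned were 2w-WD replicate 4, which stood low 8 times, 14w-WD replicate 4, low 7 times and high 1 time, and 2w-WD replicate 1, high 6 times and low 3 times.

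2w-WD replicate 4 stood low for the bright genes Anxa5 (11.84), Clta (13.08), Ctsb (13.88), Lgals3 (13.68), Lipa (12.17), Npc2 (14.05) and Psap (13.46), and for Cd36 (8.84). This array was the dimmest of the group. Cd36 and Lgals3 did not pass the test.

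14w-WD replicate 4 stood low for Acta2 (12.33), C1qc (7.29), Lep (4.26), Lgals3 (14.10), Mylk (6.98), Nup107 (4.96) and Psmb10 (6.46), and high for Oat (10.83). 2w-WD replicate 1, the brightest of its group, stood high for Bak1 (7.87), Eef2 (8.60), Irf1 (7.86), Rnh1 (6.83) and Tars (7.38). It stood apart also for Elf4 (7.05), Hnrnpm (5.34), Ncr1 (6.60) and Wipi2 (6.01).

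Single values came from other arrays. 14w-WD replicate 1 stood high for Cd9 (9.57), Col6a3 (12.73) and Galnt11 (8.69). 14w-WD replicate 5 stood apart for Mcm6 (10.12) and Tex15 (4.92), 2w-WD replicate 5 was high for Acta2 (13.38) and Ptafr (6.75), and 2w-WD replicate 3 was low for Nos3 (5.62).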

How the results depend on the processing

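The median change of all genes stayed above 0 under every alternative but fell from 0.23 to 0.11 with no filter and to 0.04 with the brightness covariate. Quantile normalization gave 669 higher and 300 lower genes with a median change of 0.0109, a level of at least 8 gave 219 changed (216 higher, 3 lower), and array weights gave 3839 (3087 and 752). A least change of 0.5 gave 0 changed, 0 higher and 0 lower genes, with 1294 at an unadjusted p under 0.05, and the brightness covariate likewise 0, with 934. Leaving out 1 array gave 164 to 3536 changed genes, 160 to 2953 higher and 4 to 583 lower, and medians of 0.17 to 0.31. Without 2w-WD replicates 1 and 4 together the counts were 2233, 1831 and 402. As means of their probe sets 1156 of 1164 called genes kept their sign; among those named, Eif4e (-0.0019), Foxp1 (0.28), Itgb1 (0.11), Mrpl52 (0.28) and Wipi2 (0.0047) did not, and the cause was not tested. The replicate number as a block gave 2122 changed genes (1873 higher, 249 lower). Pairs of whole arrays correlated between 0.86 and 0.97. After each gene's group mean was subtracted, 2w-WD and 14w-WD arrays of the same number correlated between -0.17 and 0.30. By these deviations 2 of the 5 matched best within their number. Whether the numbers pair the arrays was not tested. Dim levels in 2w-WD limit the folds of the genes that rose from below the filter level.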
